A study of Mus musculus with 18 samples.

Results

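Chemokine ligands were measured as a gene family on 18 mouse microarrays of cells before, during and after reprogramming to pluripotency. A gene was included if its symbol was Cxcl or Ccl followed by a number and an optional letter, or was Ppbp, Pf4 or Cx3cl1, and if a probe set named that gene alone. The rule found 35 of the 22180 genes on the array: 13 with a Cxcl symbol, 19 with a Ccl symbol and the 3 named ones. A further 6 symbols (Ccl19, Ccl21a, Ccl21b, Ccl21c, Ccl21d and Ccl27b) were carried only by probe sets that name several genes and were not analysed here.

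All cells were labelled as strain Black6-129X1/SvJ. The time course used reprogrammable mouse embryonic fibroblasts (Rep-MEFs), in which dox switches on Oct4, Klf4, Sox2 and Myc (OKSM). The first arm expressed OKSM alone; the second expressed OKSM and also received AGi, which is ascorbic acid with an inhibitor of the kinase GSK3. Both arms are bulk populations with a single array on each of days 2, 4, 6, 8, 10 and 12. A further 6 arrays held Rep-MEFs without dox (MEFs below), granulocyte-macrophage progenitors (GMPs, blood progenitors of the bone marrow), wild-type embryonic stem cells (ESCs), fibroblast-derived iPSCs after an OKSM and AGi induction of 96 hours, GMP-derived iPSCs after 48 hours of the same, and cells sorted as Thy1+ on day 3 from cultures with OKSM alone, which the submitters call refractory. No condition was repeated, so the errors and p-values given for the arms measure the spread between days, and nothing says that the days were separate cultures.

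Chemokines are small secreted proteins that steer cells along a gradient by binding receptors on the surface of their target cells. Fibroblasts and other stromal cells make ligands such as Cxcl12, which holds Cxcr4-bearing progenitors in place, Ccl2 and Ccl7, which draw monocytes, and Cxcl1 and Cxcl5, which draw neutrophils. Myeloid cells and platelets make others, among them Ccl3, Ccl6, Ccl9 and Pf4. The genes of several neutrophil attractants and of the platelet protein Pf4 lie side by side in a CXC cluster, in the order Cxcl5, Ppbp, Pf4, Cxcl3, Cxcl15, Cxcl1 and Cxcl2 in the RefSeq annotation. Members were described as stromal, myeloid and platelet, interferon-induced, lymphoid, or epithelial and mucosal chemokines.

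The promoters of 5 members that the results turn on are shown first, from 4 genes with the lowest measured AGi differences (Cxcl12, Cxcl14, Ppbp and Cxcl15) and from Cxcl1, a neighbour of Ppbp and Cxcl15 in the cluster whose promoter carries a kappaB match. Each is the 250 bases before the start site in RefSeq's annotation of GRCm38.p6, 5′ to 3′ on the gene's strand. Capitals mark a match to the TCF/LEF motif ATCAAAG in Cxcl12, to the TATA box TATAAA in Ppbp and Cxcl15, and to the kappaB motif in Cxcl1 (GGGA, any 2 bases, TTCC), where the matches on both strands overlap. Cxcl12 (chr6:117168285-117168534, plus strand), Cxcl14 (chr13:56296552-56296801, minus strand), Ppbp (chr5:90768268-90768517, plus strand), Cxcl15 (chr5:90794284-90794533, plus strand) and Cxcl1 (chr5:90890995-90891244, plus strand) read:
Cxcl12: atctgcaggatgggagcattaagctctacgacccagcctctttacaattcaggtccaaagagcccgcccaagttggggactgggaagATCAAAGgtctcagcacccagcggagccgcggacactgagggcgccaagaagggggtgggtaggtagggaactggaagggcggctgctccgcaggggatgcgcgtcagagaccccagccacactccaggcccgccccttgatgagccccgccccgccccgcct
Cxcl14: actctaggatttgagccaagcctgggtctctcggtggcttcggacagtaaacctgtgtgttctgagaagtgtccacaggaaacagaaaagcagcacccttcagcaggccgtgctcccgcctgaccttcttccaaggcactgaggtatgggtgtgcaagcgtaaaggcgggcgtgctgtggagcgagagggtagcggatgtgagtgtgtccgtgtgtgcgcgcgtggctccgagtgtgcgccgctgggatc
Ppbp: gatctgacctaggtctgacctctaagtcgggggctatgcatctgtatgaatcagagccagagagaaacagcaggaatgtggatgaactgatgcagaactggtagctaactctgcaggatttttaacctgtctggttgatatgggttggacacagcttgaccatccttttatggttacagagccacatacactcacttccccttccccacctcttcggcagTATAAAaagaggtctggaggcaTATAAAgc
Cxcl15: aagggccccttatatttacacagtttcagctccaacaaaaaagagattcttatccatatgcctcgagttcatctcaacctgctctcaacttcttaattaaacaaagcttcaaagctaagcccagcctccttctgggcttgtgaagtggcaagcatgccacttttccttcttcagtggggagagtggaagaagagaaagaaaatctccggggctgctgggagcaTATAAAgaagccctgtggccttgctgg
Cxcl1: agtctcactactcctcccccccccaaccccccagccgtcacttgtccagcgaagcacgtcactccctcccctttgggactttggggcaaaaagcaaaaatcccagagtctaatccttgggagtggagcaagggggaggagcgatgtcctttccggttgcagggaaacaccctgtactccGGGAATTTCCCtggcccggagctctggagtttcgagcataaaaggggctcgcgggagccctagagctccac

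Promoter windows of 300 bases, from 250 before to 50 after the start, were found for 24 of the 35 members. Searched on both strands, the kappaB motif was in 5 of these 24 windows (Ccl1, Cxcl1, Cxcl10, Cxcl2 and Cxcl3) and in 1.47% of all 32851 windows. The letters TATAAA were in 9 of 24 (Ccl12, Ccl8, Ccl9, Cx3cl1, Cxcl13, Cxcl15, Cxcl3, Cxcl9 and Ppbp) and in 13.6% of all windows. ATCAAAG, the motif of the TCF/LEF factors through which the Wnt pathway acts once GSK3 is inhibited, was in 1 of 24, Cxcl12. That share is near the 3.73% of all windows. No motif matched in the Cxcl14 window. These are matches of letters, not sites of binding.

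The deposited log2 values had array medians of 6.32 to 6.46. Olfactory receptor genes, which are mostly silent in such cells, gave a background level: their 95th percentile lay between 6.07 and 6.41 per array. In the 2 arms it was 6.233 to 6.324 on days 2, 4 and 6 and lower, 6.072 to 6.195, on days 8, 10 and 12. By this measure 16 to 23 of the 35 members stood above background on an array, 12 did so on every array, and 9 (Ccl1, Ccl12, Ccl22, Ccl24, Ccl26, Ccl5, Cxcl2, Cxcl3 and Cxcl9) on none. Thy1, the sort marker, read 11.24 in the sorted cells, against 10.83 and 10.36 in the OKSM cultures of days 2 and 4. Nanog, a core pluripotency factor, read 12.26 to 12.32 on the 3 pluripotent arrays and 6.09 in MEFs. All 10 granulocyte and progenitor markers stood above background on the GMP array, with a median of 10.49 against 5.56 in MEFs.

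**Figure D1:**
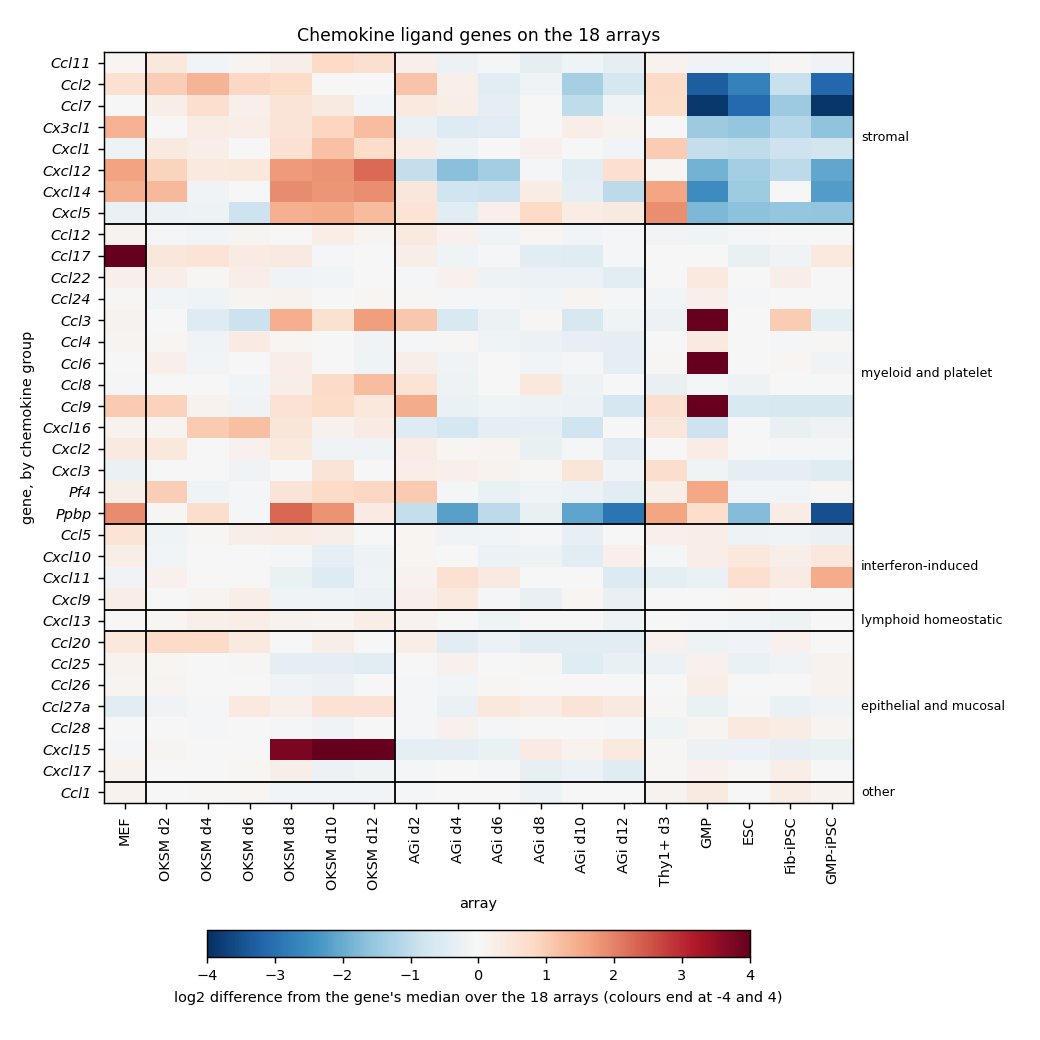
Log2 difference of each of the 35 chemokine genes (rows, by chemokine group) from its own median over the 18 arrays (columns), so that colours compare arrays within a row and not rows with each other. Of the stromal chemokines, Ccl2, Ccl7, Cxcl12 and Cx3cl1 are low on the GMP and pluripotent arrays, Ccl3, Ccl6 and Ccl9 are high in GMPs, Ccl17 is high in MEFs, and Cxcl15 is high in the OKSM arm from day 8.

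The main comparison asked how AGi changed chemokine expression over the 6 days. Of 20 members counted, 8 were lower with AGi and 0 were higher, with Ppbp, Cxcl12 and Cxcl14 differing the most. Ppbp, the platelet basic protein precursor that yields a neutrophil attractant, was 5.39-fold lower and Cxcl12 3.75-fold lower. Of 7 stromal chemokines counted, 5 fell, as did Cxcl16 and Ppbp among 6 myeloid and platelet members and Ccl20 among 5 epithelial and mucosal ones. The sole interferon-induced (Cxcl10) and the sole lymphoid member counted (Cxcl13) did not pass. In these bulk samples fewer cells of a type and less RNA per cell cannot be told apart.

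The fit took 22 members, whose values reached the median of the array at least 3 times among the 12 arrays of the arms. Of these Ccl11 and Cxcl15 did so on 3 OKSM arrays each and on no AGi array, so they entered through the arm where they were higher. Their values are given below with no test, and they are left out of every count over the time course, as is any gene whose mean over the 12 arrays lay under the mean array median. That left 20 members among 13230 genes. Ccl20 (6 OKSM arrays and 1 AGi array) and Pf4 (4 and 1) also passed the filter through their OKSM arrays. They stayed in the counts, so counts that hold them carry that dependence.

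By limma with the day as a block and Benjamini-Hochberg adjustment over all 13865 genes fitted, 40% of the counted members were lower, against 19.5% of all counted genes lower and 20.1% higher. At an unadjusted p under 0.05, 12 members were lower and 0 higher. The share of all genes at an unadjusted threshold was not computed, here or for the unadjusted counts below. The median AGi effect was -0.47 log2 over the counted members and 0.00 over all counted genes. With no filter on low values the Cxcl1 call was lost (limma adjusted p = 0.0563). The 13 members not in the fit were Ccl1, Ccl12, Ccl17, Ccl22, Ccl24, Ccl26, Ccl5, Ccl6, Ccl8, Cxcl11, Cxcl2, Cxcl3 and Cxcl9. Over all 35 members the median difference was -0.21.

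The arms also differed in a measure that comes from no cell. Hybridisation controls are added to the sample after labelling, and their 18 probe sets all read higher with AGi, by 0.0555 to 0.263 and by 0.168 ± 0.068 on average (SD over 6 days). Tested against the largest control difference in place of 0, 6 members were lower (Ccl20, Cx3cl1, Cxcl12, Cxcl14, Cxcl16 and Ppbp) and 0 higher, against 5.57% and 3.17% of all genes. Ccl2 (adjusted p = 0.0695) and Cxcl1 (0.414) did not pass that limma test. With each array shifted by its controls, which moved the median of all genes to -0.16, 15 members were lower and 0 higher, against 38% of all genes lower and 7.7% higher.

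**Figure D2:**
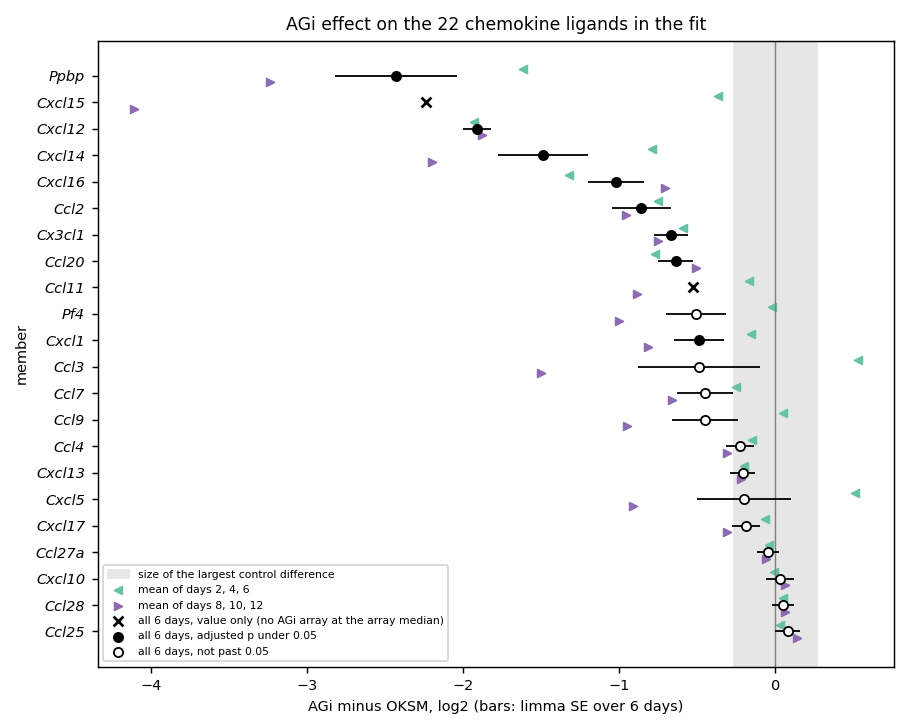
AGi minus OKSM on the log2 scale for the 22 members in the fit (circles, mean of 6 days; bars, limma SE; crosses, Ccl11 and Cxcl15, values only), with the means of the early and the late days as triangles and the size of the largest control difference in grey. Filled circles are the 8 members past the threshold, from Ppbp at -2.43 to Cxcl1 at -0.49; for Cxcl15, Ccl3 and Pf4 the late triangle lies far below the early one.

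Cxcl12, the stromal ligand of Cxcr4, was lower with AGi by nearly the same amount on each day. In the OKSM arm it read 9.99, 9.48, 9.52, 10.79, 10.88 and 11.36 from day 2 to day 12, and with AGi 8.12, 7.40, 7.68, 9.02, 8.62 and 9.75. The ranges of the arms overlapped because both were higher on the late days, but on each of the 6 days the AGi array was the lower, with differences between -2.26 and -1.61. The effect was -1.91 ± 0.09 (limma SE, n = 6 days, adjusted p = 0.0001). MEFs read 10.69, so the OKSM arm fell below MEFs on days 2, 4 and 6 and was above them from day 8, while the AGi arm stayed below on every day.

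Cxcl14, a homeostatic chemokine of fibroblasts and epithelia, read 11.31, 9.86, 9.99, 11.88, 11.78 and 11.85 with OKSM and 10.45, 9.20, 9.16, 10.30, 9.65 and 8.96 with AGi. Both arms dipped after day 2, the OKSM arm came back to the MEF level (11.42) from day 8, and the AGi arm did not. The effect was -1.49 ± 0.29 (limma, n = 6 days, adjusted p = 0.0063), with AGi lower on 6 of 6 days. Cx3cl1, or fractalkine, the membrane-tethered ligand of Cx3cr1, lay between 8.84 and 10.09 (median 9.26) with OKSM and between 8.33 and 9.11 (median 8.71) with AGi. It was lower on 6 of 6 days by a smaller amount, -0.67 ± 0.11 (limma adjusted p = 0.0030), and both arms stood below the MEF value of 10.26 on every day.

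The monocyte attractants Ccl2 and Ccl7 are neighbours in the genome and both started level between the arms. Ccl2 read 11.20, 11.58, 11.06, 10.94, 10.25 and 10.19 with OKSM and 11.37, 10.43, 9.78, 10.08, 8.90 and 9.51 with AGi. On day 2 the AGi array was the higher by 0.17, and on the other 5 days it was lower. The effect was -0.86 ± 0.19 (limma, n = 6 days, adjusted p = 0.0102). Ccl7 lay between 10.57 and 11.30 (median 10.97) with OKSM and between 9.65 and 11.07 (median 10.58) with AGi. Its difference was -0.45 ± 0.18, likewise lower on 5 of 6 days, and did not pass (limma adjusted p = 0.0816).

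Ccl11, or eotaxin, which draws eosinophils, stayed near background. It read 6.50, 5.94, 6.18, 6.31, 6.85 and 6.72 with OKSM and 6.28, 5.82, 6.02, 5.67, 5.88 and 5.67 with AGi, and stood above background on 5 of 18 arrays. The AGi array was the lower on 6 of 6 days, with differences between -1.05 and -0.11, and on the 3 late days it was below background. Cxcl1, a neutrophil attractant that NF-kB induces, lay between 6.90 and 8.11 (median 7.41) with OKSM and between 6.71 and 7.23 (median 6.93) with AGi. Its effect was -0.49 ± 0.16 (limma adjusted p = 0.0411), lower on 5 of 6 days. The Cxcl1 call was lost without day 4 (0.0758), day 8 (0.0914), day 10 (0.0918) or day 12 (0.0959). The arms overlapped for both genes.

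Cxcl5, another stromal neutrophil attractant, differed in sign between days. With OKSM it read 7.87, 7.91, 7.27, 9.52, 9.59 and 9.38, and with AGi 8.64, 7.65, 8.30, 8.91, 8.41 and 8.45. The AGi array was higher on days 2 and 6 and lower on the other days, and the effect over all days was -0.20 ± 0.30 (limma adjusted p = 0.631).

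Ppbp had the lowest AGi effect of the family. The OKSM arm read 10.04, 10.69, 9.92, 12.29, 11.77 and 10.31, and the AGi arm 9.03, 7.82, 8.93, 9.69, 7.88 and 7.06. The lowest OKSM array stood above the highest AGi array, so the arms did not overlap. The effect was -2.43 ± 0.39 (limma, n = 6 days, adjusted p = 0.0031), with AGi lower on 6 of 6 days. Cxcl16 was the only other counted member without overlap, which made 2 of 20, or 10%, against 5.54% of all genes lower and 6.2% higher without overlap. Cxcl16, a transmembrane ligand of Cxcr6, read 8.18, 9.12, 9.26, 8.56, 8.24 and 8.40 with OKSM and 7.55, 7.37, 7.68, 7.74, 7.26 and 8.07 with AGi. Its effect was -1.02 ± 0.18 (limma adjusted p = 0.0049); the gap was widest on days 4 and 6, when the OKSM arm stood furthest above the MEF value of 8.20, and narrowest on day 12. Of the counted members, 6 (30%) were lower on each of the 6 days, against 18.7% of all genes lower and 18.5% higher; 0 members were higher on each day.

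Cxcl15, or lungkine, a neutrophil attractant known from lung epithelium, stood above background in the late OKSM arm alone. It read 4.98, 4.88 and 4.87 on days 2, 4 and 6 with OKSM, below background, and 8.64, 9.43 and 9.76 on days 8, 10 and 12. With AGi it stayed between 4.49 and 5.28, and on the 6 single arrays between 4.56 and 4.92. Its 3 late OKSM arrays were the only ones of the 18 above background. On the late days the OKSM mean of 9.27 was at least 9.02-fold above the AGi arrays, taking background as the AGi level. No test is given, since these 3 arrays are the ones that brought the gene into the fit. Ccl20, the ligand of Ccr6, lay between 6.57 and 7.35 (median 6.89) with OKSM and between 6.11 and 6.83 (median 6.16) with AGi. It was lower on 6 of 6 days, with an effect of -0.64 ± 0.11 (limma adjusted p = 0.0036), though the ranges of the arms overlapped. It reached the array median on 6 OKSM arrays and 1 AGi array, so it passed the filter through its OKSM arrays. A filter on the mean over the 12 arrays (limma adjusted p = 0.0033) uses the same OKSM arrays and cannot remove that dependence. With no filter the limma adjusted p was 0.0045.

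The remaining counted members did not pass over the 6 days. Pf4, the platelet factor 4 gene (-0.51 ± 0.19, limma adjusted p = 0.0700), Ccl3 (-0.49 ± 0.39, 0.350) and Ccl9 (-0.45 ± 0.21, 0.128) are myeloid or platelet chemokines. Their differences had either sign on the early days and were negative on each late day. Ccl4, Cxcl13 and Cxcl17 lay between -0.23 and -0.19, within the size of the control difference. Ccl25, Ccl27a, Ccl28 and Cxcl10 lay between -0.05 and 0.08, each with an SE of 0.07 to 0.09.

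**Figure D3:**
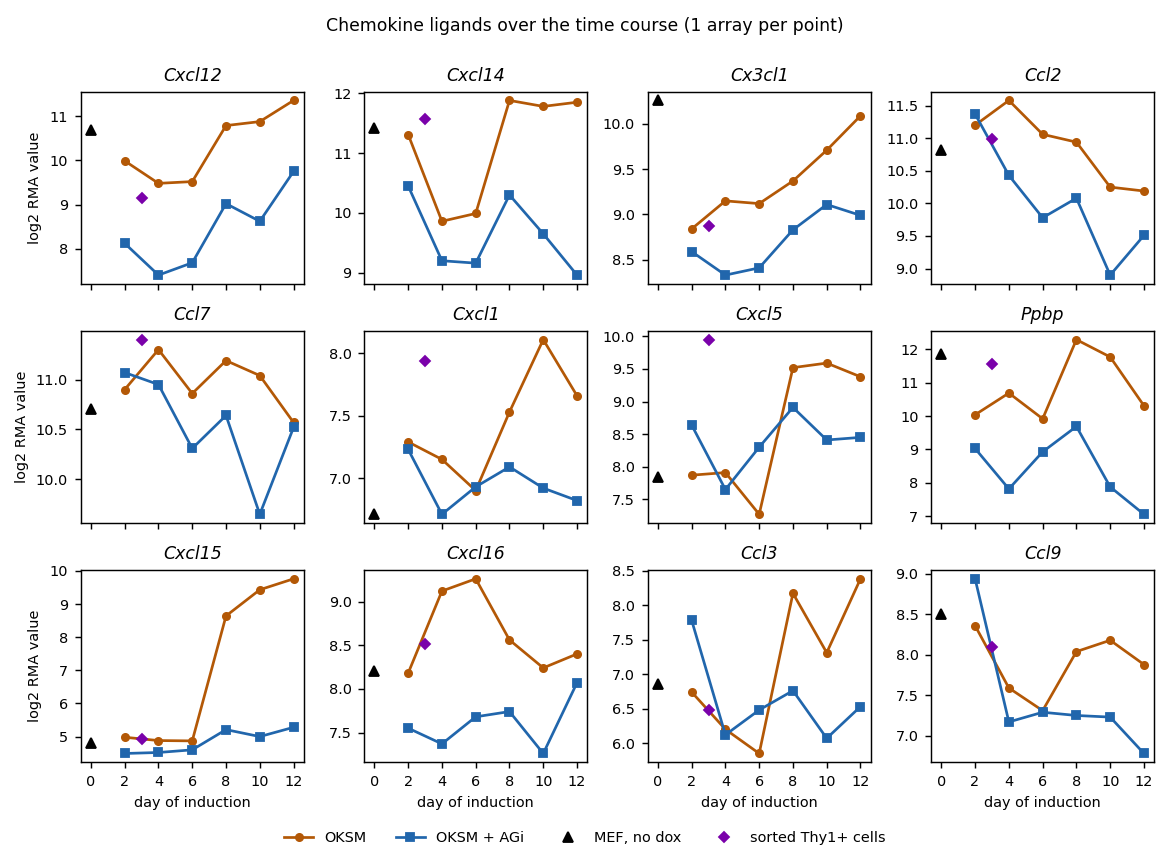
Log2 RMA values of 12 members over the day of induction with OKSM (circles) and OKSM with AGi (squares), with MEFs without dox drawn at day 0 (triangle) and the sorted Thy1+ cells at day 3 (diamond); each point is 1 array and each panel has its own axis. Cxcl12 and Ppbp are lower with AGi on all 6 days, whereas Cxcl15 and Ccl3 lie far below the OKSM arm from day 8, with late OKSM values of 8.64 to 9.76 and 7.31 to 8.38.

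The AGi effect was then set apart for the early days (2, 4 and 6) and the late days (8, 10 and 12) in the same kind of fit. Early, 6 of 20 members were lower (Cxcl12, Ppbp, Cxcl16, Cxcl14, Ccl20 and Cx3cl1), or 30% against 8.44% of all genes, and 0 were higher by limma (1 at an unadjusted p under 0.05), against 6.38%. Late, 12 were lower, or 60% against 20.6% of all genes, and again 0 were higher (0 unadjusted), against 21.1%. The late calls added Ccl2, Ccl3, Ccl9, Cxcl1, Cxcl5 and Pf4. The members' median effect was -0.15 on the early and -0.73 on the late days, beside 0.00 and 0.01 over all genes.

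For 2 members, Ccl3 and Pf4, the late effect was lower than the early one by the test of that difference, or 10% of 20 against 1.66% of all genes. By limma 0 were higher (0 unadjusted), against 0.574%. Of the 2, Pf4 passed the filter through its OKSM arrays, as set out below. Ccl3, a macrophage inflammatory protein, went from 0.53 to -1.50, a change of -2.03 ± 0.29 (limma adjusted p = 0.0257). Its OKSM arrays read 6.74, 6.20, 5.85, 8.17, 7.31 and 8.38, and its AGi arrays 7.78, 6.12, 6.48, 6.76, 6.07 and 6.53. So AGi was higher by 1.04 on day 2 and lower on each late day. Ccl3 was below background on days 4 and 6 with OKSM and on days 4 and 10 with AGi. The differences on those days, and the effects that use them, are as measured. The Ccl3 call was lost without day 2 (0.0586), day 6 (0.0548) or day 10 (0.111).

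Pf4 showed the same shape at a lower amplitude. With OKSM it read 7.18, 6.03, 6.15, 6.73, 6.99 and 7.02, and with AGi 7.25, 6.12, 5.94, 6.02, 5.97 and 5.74, so the arms were level on day 2 and both dropped by day 4. On the late days the OKSM arm read 6.73 to 7.02 and the AGi arm 5.74 to 6.02, below background on each late day, so that OKSM was at least 1.76-fold above it. Its change between periods was -0.99 ± 0.17 (limma adjusted p = 0.0365), lost without day 2 (0.109), day 4 (0.154), day 6 (0.0549), day 10 (0.141) or day 12 (0.0591). Pf4 reached the array median on 4 OKSM arrays and 1 AGi array, so it passed the filter through its OKSM arrays. With no filter the limma adjusted p of its change was 0.0446. For Cxcl12 (0.05 ± 0.18, adjusted p = 0.913) and Cxcl16 (0.60 ± 0.31, 0.335) the change between periods did not pass.

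Ccl9, a myeloid chemokine, read 8.36, 7.59, 7.31, 8.04, 8.18 and 7.88 with OKSM and 8.94, 7.17, 7.29, 7.25, 7.23 and 6.78 with AGi. It was thus high in both arms on day 2 and differed on the late days, where the effect was -0.95 ± 0.17 (limma adjusted p = 0.0045). Its change between periods missed the threshold (-0.99 ± 0.24, adjusted p = 0.0837).

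Most of the macrophage and fibroblast markers counted were also lower with AGi. Of 15 macrophage markers counted, 11 were lower with AGi and 1, Cd68 (0.45), was higher; C1qb, a complement gene of macrophages, was lowest at -1.37 ± 0.35 (limma adjusted p = 0.0169). Their median level in the OKSM arm was 7.56 on day 2, 6.30 and 6.29 on days 4 and 6, and 7.34 to 7.56 on the late days. With AGi it was 7.08 on day 2, 6.18 and 6.14, and then 6.27 to 6.40. Ccl3, Pf4 and Ccl9 were likewise lower on days 4 and 6 than on day 2 in both arms, and higher with OKSM than with AGi on the late days. The other counted myeloid and platelet members did not share this course. With OKSM, Cxcl16 was higher on days 4 and 6 (9.12 and 9.26) than on day 2 (8.18). Ppbp was higher on day 4 (10.69 against 10.04 on day 2) and Ccl4 on day 6 (6.96 against 6.71). At the lowest, on days 4 and 6 with AGi, 9 of the 22 macrophage markers stood above background, and on day 2 with OKSM 18 did. Of 16 fibroblast markers, 13 were lower and 0 higher. Their median took a like course. With OKSM it was 10.63 on day 2, 9.25 and 9.31 on days 4 and 6, and 10.90 to 11.20 on the late days. With AGi it was 9.68, then 8.41 and 8.76, and 9.67 to 10.10 on the late days. Of the stromal members, Cxcl12, Cxcl14, Cxcl1 and Ccl11 were also lower on days 4 and 6 than on day 2 in both arms. They too were higher with OKSM on the late days. Ccl2, Ccl7, Cx3cl1 and Cxcl5 did not share that course. The part of either cell type in the chemokine differences was not tested.

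Platelet markers were read beside Ppbp. Itga2b (-0.06), Gp9 (-0.05) and Treml1 (-0.15) were the 3 of 9 megakaryocyte and platelet markers tested, and 0 were called by limma (0 at an unadjusted p under 0.05). The median level of the 9 lay between 5.92 and 6.20 with OKSM and between 5.88 and 6.19 with AGi. Only 3 to 5 of the 9 stood above background on an array of either arm, so a fall of the others could not be seen. The part of such cells in the Ppbp difference was not tested. Of 2 tested granulocyte markers, 0 were called (0 unadjusted). Of 3 tested endothelial markers 2 were lower, Cdh5 (-0.91 ± 0.24) and Tek (-0.83 ± 0.26), and Pecam1 stood at 0.74 ± 0.35 without passing (limma adjusted p = 0.132). Pecam1 read 9.38 to 9.76 on the 3 pluripotent arrays and 6.71 in MEFs. Tek read 5.33 in MEFs and 10.17 on day 2 with OKSM. The part of endothelial cells in these values was not tested.

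Between day 6 and day 8 the OKSM arm jumped for several members. Single arrays are compared here, with a fold of at least 1 log2 and no test. There 5 of 20 members were higher on day 8 with OKSM: Ppbp by 2.37, Cxcl5 by 2.25, Cxcl14 by 1.89, Cxcl12 by 1.27 and Ccl3, which was below background on day 6, by at least 1.89 (2.32 as measured). This was 25%, against 2.75% of all genes. Cxcl15, outside that count and likewise below background on day 6, was higher by at least 2.36 (3.77 as measured). With AGi 2 members were higher, Cxcl12 by 1.34 and Cxcl14 by 1.14, against 1.38% of all genes. No counted member was lower by that fold in either arm (0 of 20), against 0.491% of all genes with OKSM and 0.34% with AGi.

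Seen along the CXC cluster, the rise was uneven. In chromosomal order the OKSM changes were 2.25 for Cxcl5, 2.37 for Ppbp, 0.58 for Pf4, 0.12 for Cxcl3, 3.77 for Cxcl15, 0.63 for Cxcl1 and 0.20 for Cxcl2. Cxcl2 and Cxcl3, whose promoters both hold the kappaB letters, stayed below background on all 18 arrays. With AGi the same genes changed by 0.61, 0.76, 0.08, -0.08, 0.62, 0.16 and -0.40, where Cxcl15 was below background on both days. On these single pairs of arrays the rises of Cxcl5, Ppbp, Pf4, Cxcl15 and Cxcl1 were larger with OKSM.

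**Figure D4:**
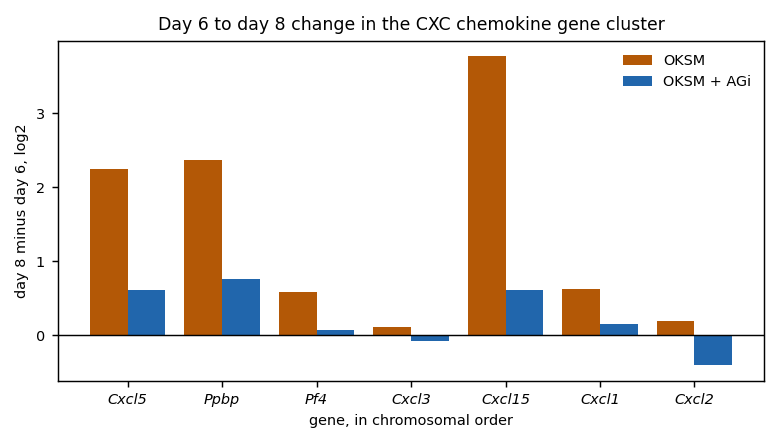
Log2 value on day 8 minus day 6 for the 7 genes of the CXC cluster in chromosomal order, with OKSM (left bars) and OKSM with AGi (right bars); each bar is a difference of 2 arrays and has no error. Cxcl15, Ppbp and Cxcl5 rise by 3.77, 2.37 and 2.25 with OKSM and by 0.62, 0.76 and 0.61 with AGi.

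Slopes over the day called few members. In the OKSM arm Cx3cl1 rose by 0.117 ± 0.0202 log2 per day (limma adjusted p = 0.0081), 5% of members against 4.97% of all genes. Ccl20 fell there (-0.0839 ± 0.0222, adjusted p = 0.0405), 5% against 3.97%. With AGi Cxcl12 rose by 0.189 ± 0.055 (0.0359) and Cx3cl1 by 0.0679 ± 0.0202 (0.0392), 10% against 10.4% of all genes rising, and Ccl2 fell (-0.194 ± 0.0408, 0.0086), 5% against 8.34% falling. These shares were near those of all genes. The slopes differed between arms for 0 counted members by limma (3 lower and 0 higher with AGi at an unadjusted p under 0.05), against 1.25% of genes lower and 1.66% higher. When the model gave days 8 to 12 a level of their own, 0 of the slope calls were left.

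The slope calls also rested on single days. Without day 12 the rise of Cx3cl1 in the OKSM arm was lost (adjusted p = 0.0738), and without day 2 the fall of Ccl2 with AGi (0.0512). The rise of Cxcl12 with AGi was lost without day 4 (0.118), day 8 (0.0670), day 10 (0.0561) or day 12 (0.343). That of Cx3cl1 with AGi was lost without day 4 (0.130), day 6 (0.0505), day 8 (0.0729), day 10 (0.118) or day 12 (0.134). The fall of Ccl20 was lost without any of the 6 days (0.0504 to 0.111).

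Sorted Thy1+ cells from day 3 of OKSM were set beside the bulk OKSM cultures of days 2 and 4, between which they fall in time. The neutrophil attractants Cxcl5 and Ppbp stood out. Cxcl5 read 9.95 in the sorted cells, the highest of the 18 arrays, and was 2.06 above the mean of the bulk arrays (7.87 and 7.91). Ppbp read 11.56 and was 1.20 above that mean (10.04 and 10.69), although against day 4 alone the difference was 0.87. These made 2 of 21 members, or 9.52%, against 0.535% of all genes higher by at least 1 log2, and 0 were lower, against 0.666%. Cxcl14 was higher by 0.98, which was 0.26 against day 2 and 1.71 against day 4, and Cxcl1 by 0.72. Cxcl12 (-0.58) and Ccl20 (-0.60) lay on the low side. No condition was repeated, so none of these differences has a test.

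Against the AGi cultures of days 2 and 4, 5 of 21 members were higher in the sorted cells: Ppbp by 3.13, Cxcl5 by 1.81, Cxcl14 by 1.75, Cxcl12 by 1.40 and Cxcl16 by 1.05. This was 23.8%, against 2.4% of all genes, and 0 were lower, against 1.36%. Against MEFs, Cxcl5 (2.11) and Cxcl1 (1.22) were higher, 9.52% against 4.09% of all genes, and Cxcl12 (-1.54), Cx3cl1 (-1.39) and Ccl17, below background in the sorted cells (at least 10.2-fold), were lower, 14.3% against 3.61%. Ccl17 entered the count against MEFs only through the MEF array, where it was high. The late gene Cxcl15 read 4.92 in the sorted cells, below background. Their macrophage markers had a median of 6.53, between that of bulk OKSM day 2 (7.56) and day 4 (6.30), and their fibroblast markers one of 9.76, likewise between 10.63 and 9.25.

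On the arrays of the starting and end cell types, 6 of 8 stromal chemokines read lower by at least 1 log2 in GMPs and in pluripotent cells than in MEFs, while the myeloid and platelet members went both ways in GMPs. Where a gene was below background on the lower side, its difference is given as a bound against the olfactory level, and the measured value can be read from the levels. The comparisons that follow share the MEF array, and those of the iPSC lines share the ESC array. Any gene was counted where it reached the array median on at least 1 of the arrays compared. Ccl6 entered only through the GMP array. Ccl17 entered the counts against MEFs, and Cxcl5 that of GMPs against MEFs, only through the MEF array. Each of these thus entered through the side where it was high. GMPs were higher than MEFs for 4 of 21 members: Ccl6 by at least 3.92 (below background in MEFs), Ccl3 by 4.15, Ccl9 by 3.63 and Pf4 by 1.30. All belong to the myeloid and platelet group, and 19% of members compares with 11.5% of all genes. Ccl6 read 10.27 in GMPs and 4.55 to 5.16 on the other arrays. Ccl3 read 11.02 and Ccl9 12.14 in GMPs, against 6.86 and 8.50 in MEFs and no more than 8.38 and 8.94 in the time course. Ccl4, a neighbour of Ccl3, differed by 0.24 and stayed between 6.24 and 6.99 on all arrays.

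GMPs were lower for 8 members, 38.1% against 13.2% of all genes. These were Cxcl14 (-3.94), Ccl2 (-3.91), Ccl7 (-3.89), Cxcl12 (-3.51), Cx3cl1 (-2.85) and Ppbp (-1.19), with Ccl17 lower by at least 3.20 and Cxcl5 by at least 1.44, both below background in GMPs. All but Ccl17 and Ppbp belong to the stromal group. Ppbp read 10.67 in GMPs and 11.86 in MEFs, so it was well above background in both. Ccl17, a ligand of Ccr4 known from dendritic cells, read 9.61 in MEFs and 4.95 to 6.00 on the other 17 arrays, below background on each. In the OKSM arm it was already at 5.91 on day 2.

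The mean of the 3 pluripotent arrays (ESCs and both iPSC lines) was lower than MEFs for 9 of 21 members and higher for 0. That is 42.9%, against 12.4% of all genes lower and 11.7% higher. The members were Ccl17 (lower by at least 3.29), Ppbp (-3.52), Cxcl12 (-3.10), Ccl2 (-2.85), Ccl7 (-2.85), Cx3cl1 (-2.84), Cxcl14 (-2.63), Ccl9 (-1.68) and Cxcl5 (-1.33). The OKSM cultures of days 2, 4 and 6 had a mean below MEFs for 5 of 22 members, 22.7% against 3.63% of all genes: Ccl17 (lower by at least 3.36), Ppbp (-1.64), Cx3cl1 (-1.23), Cxcl12 (-1.03) and Cxcl14 (-1.03). Ccl2 (0.46) and Ccl7 (0.32) were not among them, and 0 members were higher, against 4.54% of all genes.

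Some members of the stromal and of the myeloid and platelet groups were higher in fibroblast-derived iPSCs than in ESCs. The difference reached 1 log2 for 5 of 18 members: Ppbp by 2.03, Ccl2 by 1.81, Ccl7 by 1.66, Cxcl14 by 1.43 and Ccl3 by 1.04. This was 27.8%, against 2.54% of all genes. Ppbp and Ccl3 belong to the myeloid and platelet group. The other stromal members differed by less: Cx3cl1 by 0.41, Cxcl12 by 0.30, Ccl11 by 0.22, Cxcl1 by 0.19 and Cxcl5 by 0.11. In fibroblast-derived iPSCs the values for Ppbp (10.29), Ccl2 (9.33), Ccl7 (9.22) and Cxcl14 (10.01) lay between those of ESCs (8.26, 7.52, 7.55 and 8.58) and MEFs (11.86, 10.82, 10.70 and 11.42). That of Ccl3 (7.74) lay above both ESCs (6.69) and MEFs (6.86). GMP-derived iPSCs were lower for 1 of 18 members, Ppbp, with a difference of -1.80 and a value of 6.45, or 5.56% against 1.16% of all genes, and higher for 0 against 0.95%. The fibroblast marker median read 9.14 in fibroblast-derived iPSCs, 7.99 in ESCs, 7.15 in GMP-derived iPSCs and 11.71 in MEFs. What fibroblast RNA contributes to these differences was not tested.

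**Figure D5:**
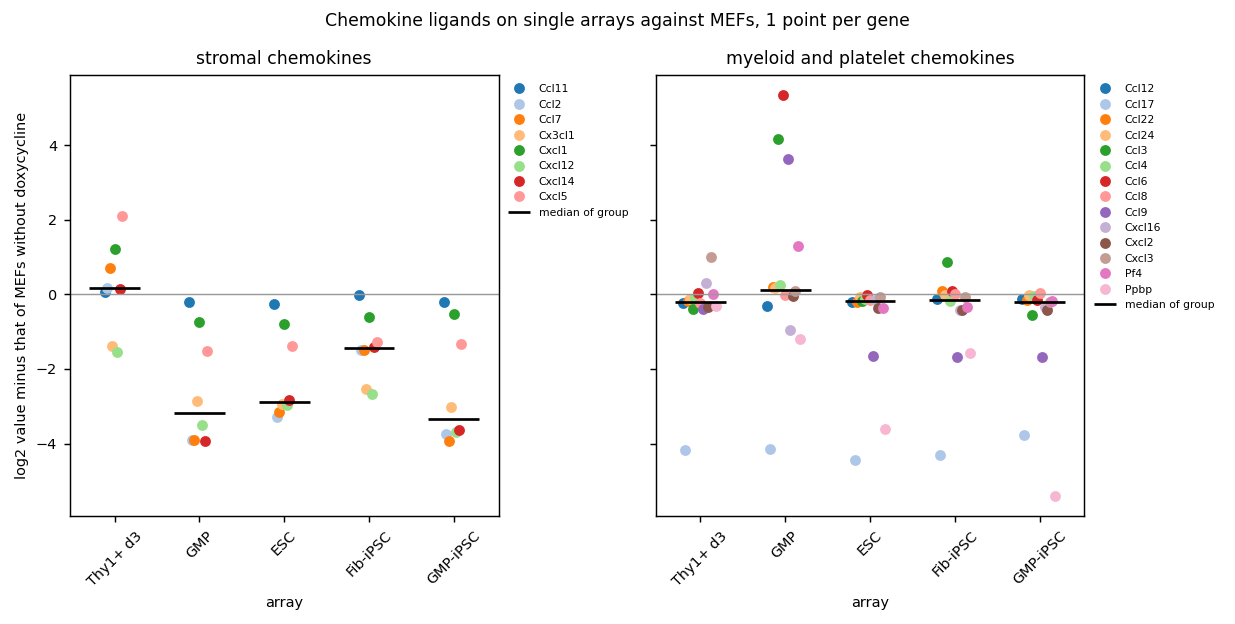
Log2 value minus that of MEFs without dox for the 8 stromal (left) and 14 myeloid and platelet members (right) on 5 single arrays, which all share the MEF array; each point is 1 gene and the black line is the median of the group. Points are as measured, also below background. On the GMP array Ccl6, Ccl3 and Ccl9 lie at 5.36, 4.15 and 3.63, while Cxcl14, Ccl2, Ccl7 and Cxcl12 lie between -3.94 and -3.51.

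Receptors and upstream genes were read from lists, beside the 19.5% of all genes lower and 20.1% higher. Of 8 chemokine receptors counted, 1 was lower with AGi and 0 higher by limma (0 at an unadjusted p under 0.05). It was Cxcr4, a receptor of Cxcl12, which read 9.08, 9.10, 9.37, 10.04, 9.94 and 9.86 with OKSM and 8.36, 7.81, 8.02, 8.55, 8.46 and 8.03 with AGi. The arms did not overlap, and the effect was -1.36 ± 0.13 (limma, n = 6 days, adjusted p = 0.0008). GMPs had the highest Cxcr4 value, 11.99, and MEFs read 7.90. So Cxcl12 and Cxcr4 were both lower with AGi on 6 of 6 days. Ackr3, also on the list, was at -0.26 ± 0.12 and did not pass (limma adjusted p = 0.122). Cx3cr1, the receptor of Cx3cl1, was at -0.52 ± 0.18 and missed the threshold (adjusted p = 0.0506).

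Of 12 NF-kB factors and feedback genes tested, 5 were lower (Ikbke, Nfkbie, Nfkb2, Nfkbiz and Rela) and 2 higher (Bcl3 and Nfkbib), the latter near the share of all genes. Rela (-0.24) lies within the size of the control difference. The effects lay between -0.50 ± 0.07 for the kinase Ikbke (limma adjusted p = 0.0023) and 0.52 ± 0.11 for Bcl3 (0.0084). Of 12 inflammatory mediators, 4 were lower and 3 higher. Il1r1, the interleukin-1 receptor, was at -1.11 ± 0.13 (limma adjusted p = 0.0011) and Vcam1, an adhesion molecule, at -0.94 ± 0.14 (0.0022). Icam1, another adhesion molecule that NF-kB induces, was higher by 1.37 ± 0.07 (0.0002) and Il33, an alarm cytokine, by 0.94 ± 0.21 (0.0106), both on 6 of 6 days. Of 7 interferon response genes 1 was lower, Usp18 (-0.31 ± 0.06), and 1 higher, Ifit3 (0.21 ± 0.07), which lies within the size of the control difference.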

How the data were processed

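Total RNA was hybridised to Affymetrix mouse gene arrays, 1 per sample. Per the submitters' processing notes, the authors used Affymetrix Expression Console and RMA to make the deposited log2 values of each probe set. Versions, scan dates and the genome build were not given in the sources used here, and batches of array handling were not tested. Of 41345 probe sets, 190 were controls, 23521 named 1 gene, 1814 several and 15820 none, by GEO's platform annotation with symbols updated through gene IDs. A gene with several probe sets was represented by that of the highest mean; Ccl27a was the only such member.

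Genes at or above the array median on at least 3 of 12 time-course arrays were fitted (13865); those whose mean over the 12 arrays reached the mean array median (13230) were counted, a rule added after seeing the data. The AGi effect was fitted with limma 3.58.1 in R 4.3.3 (lmFit, eBayes, Benjamini-Hochberg, threshold 0.05) with the day as a block, which pairs the arms because each day holds 1 array of each (5 residual degrees of freedom). Early and late effects came from an interaction of arm and period (4) and slopes from arm, day and their product without a block (8). Single arrays were compared by size (1 log2), among genes at or above the median on at least 1 of the arrays compared, with no test. The fits were tested on simulated data. Promoter windows are RefSeq's, GRCm38.p6.

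Members, lists, designs and alternatives were chosen with earlier results of these data known. Members past a test's threshold, or different by 2 log2 between single arrays, are given in full; of other lists, up to 4 called genes with the largest effects, with markers of macrophages, granulocytes, platelets, fibroblasts, endothelium and pluripotent cells. Further genes of those lists, and members named for the size of a single-array difference under that, were chosen after their values were seen. The number of arrays limits the precision. Figures were drawn with matplotlib 3.10.9.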

Additional observations from a re-analysis of the deposited data

Results flagged for a closer look

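Of the counted members, 2 had an AGi effect that differed between the late days (8, 10 and 12) and the early days (2, 4 and 6) by limma's test of that difference. The late minus early values were -2.03 for Ccl3 and -0.99 for Pf4 on the log2 scale. Pf4 had passed the filter through its OKSM arrays. By Dixon's criterion, run on 60 groups of 6 days (each counted member's OKSM values, AGi values and differences), 4 groups had a day set apart, all in the AGi arm. Day 2 was the highest for Ccl9 (8.94, next 7.29), Pf4 (7.25, next 6.12) and Ccl20 (6.83, next 6.35), and day 4 for Ccl28 (6.57, next 6.40). Chance would set apart about 1 of 20 groups.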

How the results depend on the processing

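The count of 8 members lower with AGi was 6 when tested against the largest control difference and 15 with arrays shifted by their controls. It was 7 with no replicate block (without Ccl2, adjusted p = 0.101, and Cxcl1, 0.0544, but with Cxcl13) and 7 to 12 with a day left out. With no filter on low values it was 10 of 35 (without Cxcl1, 0.0563), and the share of all genes under that setting was not computed. Those 10 took in Ccl11 and Cxcl15, which reached the array median on no AGi array. They also took in Ccl17, which was below background on all 12 arrays. With genes filtered by their mean over the 12 arrays, an alternative chosen after seeing the data, the count was 8. The count of 2 members with a lower late effect ran from 0 to 3 with a day left out and was 3 with no filter. With a day left out, members rising with OKSM ran from 0 to 5 and falling from 0 to 1, rising with AGi from 0 to 2 and falling from 1 to 2, and slope differences from 0 to 1. When days 8 to 12 had a level of their own, each slope count was 0, and the AGi slope of Cx3cl1 turned to -0.00419. Slope counts also moved with quantile normalization (falling with OKSM 2, rising with AGi 1, falling with AGi 2) and with no filter (rising with OKSM 3, falling with AGi 2). At 2 log2, members that differed in sorted cells numbered 1 against bulk OKSM and 2 against MEFs; against AGi cultures 5 differed by 1 log2, and against OKSM day 4 alone Cxcl14 took the place of Ppbp. Of 177 alternatives run for 15 results on single members, 137 kept the call, 39 did not and 1 reversed; the AGi effects on Ccl20, Cx3cl1, Cxcl12, Cxcl14, Cxcl16 and Ppbp were called under every alternative run. The causes were not tested. Members near the olfactory level, such as Ccl11 and Pf4, have little signal over background. Ccl20 and Pf4 passed the filter through their OKSM arrays, so results that hold them depend on that.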
